A study of Homo sapiens with 23 samples.

Results

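The genes described are 10 targets and feedback regulators of WNT signalling, *LGR5*, *RNF43*, *ZNRF3*, *AXIN2*, *NKD1*, *NOTUM*, *ASCL2*, *TCF7*, *LEF1* and *SP5*, chosen by symbol and matched to the Ensembl identifiers of the count data, which list 57875 genes in every sample. The choice was made with earlier results of these data known. All 10 were listed, and 7 of them were among the 22842 genes with enough counts to be tested. RNAseq was performed on 15 samples of HCT116, a human colorectal carcinoma cell line that carries mutant beta-catenin, with 3 replicates each of wild-type, *AGO1* knockout, *AGO2* knockout, *AGO1/2* knockout and *AGO1/2/3* knockout cells. The argonaute proteins encoded by the *AGO* genes carry microRNAs to their target RNAs, and the comparisons ask how steady state RNA levels differed when 1 or more of these genes was disrupted. The knockouts were made by CRISPR editing of HCT116 cells, so that all 5 groups share the beta-catenin mutation, and none received a WNT ligand, an inhibitor or another treatment according to the labels. Each genotype is a single cell line, and an effect of the genotype cannot be told apart from one of the line. The count headers of the *AGO2* knockout samples name a quasi quantification mode. Differences between these samples and other lines cannot be told apart from that mode. P-values reflect the spread between samples within the lines, estimated together in a single fit of the 15 samples, and not a spread between independent lines.

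In the canonical WNT pathway, a ligand bound to Frizzled and LRP receptors stops a cytoplasmic complex from marking beta-catenin for destruction, and the beta-catenin that accumulates enters the nucleus and activates genes together with proteins of the TCF/LEF family. Several of the genes switched on in this way feed back on the pathway at the receptor, in the cytoplasm, outside the cell or on DNA. In the intestine the pathway maintains the stem cells of the crypt, and it is active in most colorectal cancers through lesions of *APC* or of beta-catenin itself.

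Levels are given in CPM, the standard unit of counts scaled to a common library size, from rounded estimated counts and library sizes scaled by edgeR's TMM method, and SE is the standard error of a log2 fold change. A gene was called higher or lower where the quasi-likelihood test of edgeR gave a p of 0.05 or less after Benjamini-Hochberg adjustment over all 22842 genes. Depth ran from 27709971 to 45271146 counts per sample, and with 3 samples a side the smallest p that an exact permutation test (two-sided) can reach is 0.1. *AGO1* RNA was lower than in wild-type cells in the 3 lines in which it was targeted (log2 fold changes of -1.89, -1.84 and -2.01), and *AGO3* RNA was lower in *AGO1/2/3* knockout cells (-1.12). *AGO2* RNA was -0.51 in *AGO2* knockout cells, -0.26 and not called in the *AGO1/2* line and 0.40 in the *AGO1/2/3* line, but editing need not remove an RNA, so that these values do not check the *AGO2* label. The epithelial genes *EPCAM*, *KRT8*, *KRT18* and *KRT19* were at 61.9 CPM or more in every sample, *CDH1*, which encodes E-cadherin, was at 7.76 to 134 CPM, and *CDX2*, an intestinal transcription factor, was at 4.58 to 9.96 CPM. *VIL1*, the intestinal villin gene, reached no more than 0.288 CPM. Summed markers of other cell types were at 0.856 to 1.84 CPM for leukocytes, 1.47 to 3.21 for endothelium, 9.68 to 28 for fibroblasts (mainly *COL1A1*) and 31.8 to 145.5 for neurons (mainly *SYT1*).

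Wild-type replicate 2 stood apart. Its median absolute log2 distance from the other replicates of its line was 0.238, the highest of the 15 samples (range 0.0887 to 0.238), and it was the lowest of the wild-type samples for 7 of the 7 genes tested. The share of all genes for which it was the lowest was not computed. For *AGO2*, as an example of the other direction, it was the highest (459 against 379 and 382 CPM). The other 2 wild-type samples were on average 3.97 times as high for *AXIN2*, 1.99 times as high for *TCF7* and 11.1 times as high for *SP5*, while for *NKD1*, *ZNRF3*, *RNF43* and *NOTUM* the ratio was between 1.26 and 1.66. Called fold changes of the 7 genes against wild type are therefore given with and without this sample, whereas the values for neighbouring genes and the likeness rankings use all samples.

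The promoter of *SP5*, the gene with the largest fold change, is shown because it holds several matches to the sequence that TCF/LEF proteins recognize. RefSeq start-site windows of 300 bases (250 before and 50 after the start, GRCh38.p14) were at hand for 4 of the 10 genes, *SP5*, *TCF7*, *LEF1* and *RNF43*, 6 windows in all. They were searched on both strands for 4 spellings of the 7-letter TCF/LEF motif, and the matches found share no bases. In the sequences, read 5′ to 3′ on the strand of the gene, capitals mark the match. The first 3 lie on the plus strand at chr2:170715178-170715207, chr2:170715217-170715246 and chr2:170715242-170715271, and their matches begin 148, 109 and 84 bases before the *SP5* start. The fourth lies on the plus strand at chr5:134123557-134123586, with the match 50 bases before a second start of *TCF7*.
SP5 upstream 148: agctttgtggaTTCAAAGgatttgctttcg
SP5 upstream 109: gagccgctattCTTTGATgattgggtagcg
SP5 upstream 84: tagcggcaaacTTCAAAGccataaatcttc
TCF7 upstream 50: ggccccactggAACAAAGgaggagagaggc
The second sequence holds ATCAAAG on the opposite strand. At least 1 match was found in 13.8% of all 35116 RefSeq windows of this length, and 3 or more in 0.179%. The spelling AACAAAG was found in 5.20% of the windows, ATCAAAG in 2.62% of them, TACAAAG in 2.77% and the last spelling, TTCAAAG, in 4.43%. The windows of *LEF1*, of *RNF43* and of the first *TCF7* start held none of these letters. A match describes the sequence and does not show that a protein bound there.

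**Figure D1:**
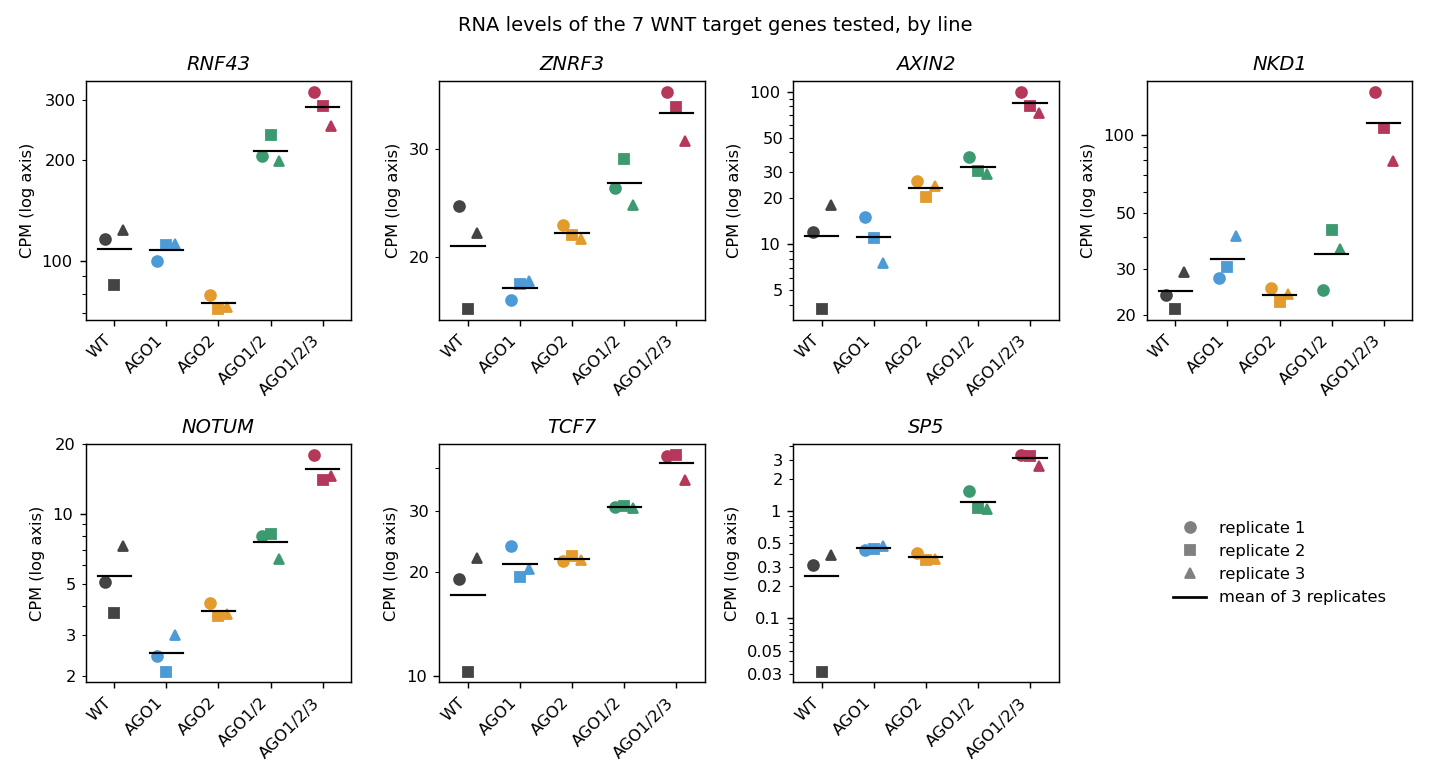
RNA levels of the 7 genes tested, in CPM on a log axis, for the 5 lines. Each point is a sample, its shape gives the replicate number, and the black line is the mean of 3 replicates. The 3 *AGO1/2/3* knockout samples lie above all samples of the other lines for each gene, and wild-type replicate 2 (black square) is the lowest wild-type sample in each panel. Of all genes tested, 26.3% lay above wild type without overlap in this line and 22.0% above *AGO1/2* knockout. The share above all other lines at once was not computed.

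All 7 genes tested were higher in *AGO1/2/3* knockout cells than in wild-type cells, and in each the 3 knockout samples lay above the 3 wild-type samples. Fold changes ran from 1.65 for *ZNRF3* to 12.3 for *SP5*. Over all genes tested, 20.3% were called higher and 19.8% lower in this comparison, and the samples did not overlap for 26.3% in the higher and 23.8% in the lower direction. The median log2 fold change was 1.53 over the 7 genes and -0.01 over all genes tested. The genes were chosen with earlier results of these data known, so that the shares over all genes do not test them as a set. In *AGO1/2* knockout cells 4 of the 7 genes were called higher and 0 lower, against 8.37% and 8.35% of all genes, with a median of 0.85 against 0.01. In *AGO2* knockout cells 0 were higher and 1 was lower (8.55% and 10.8% of all genes), and in *AGO1* knockout cells 0 were higher and 1 was lower (3.17% and 5.5% of all genes), with medians of 0.07 and 0.00. The 4 comparisons share the same wild-type samples. The 7 genes also reached the level of the filter on low counts in 3 or more samples outside the *AGO1/2/3* knockout line. Without wild-type replicate 2 the numbers called higher in *AGO1/2/3* and *AGO1/2* knockout cells were again 7 and 4. These are bulk samples, in which a smaller or larger share of cells with an RNA and a change in RNA per cell cannot be told apart.

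*RNF43* (ENSG00000108375, chromosome 17 from 58353676 to 58417595, minus strand, GRCh38) encodes a membrane E3 ubiquitin ligase that removes Frizzled receptors from the cell surface. Its level was 116, 84.9 and 124 CPM in wild-type samples, 100.1, 111 and 112 in *AGO1* knockout samples and 79.3, 72.1 and 72.9 in *AGO2* knockout samples. It was 205, 236 and 198 CPM in *AGO1/2* knockout samples and 318, 288 and 252 in *AGO1/2/3* knockout samples. The order of the lines was thus *AGO2* knockout, *AGO1* knockout and wild type, which overlapped each other only for the last 2, then *AGO1/2* and *AGO1/2/3* knockout, each above all samples of the line before it. Relative to wild type its log2 fold change was 1.40 in the *AGO1/2/3* line (SE 0.13, adjusted p = 1.01e-06, edgeR's quasi-likelihood test) and 0.97 in the *AGO1/2* line (SE 0.13, adjusted p = 0.000146, same test). Without wild-type replicate 2 these values were 1.22 and 0.81. *RNF43* was the 1 gene of the 7 called lower in *AGO2* knockout cells, at -0.54 (SE 0.13, adjusted p = 0.0147, same test). That call was lost without *AGO2* knockout replicate 2, where the highest adjusted p over the samples left out in turn was 0.0559. It was at -0.71 without wild-type replicate 2 (adjusted p = 0.00146, same test).

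*ZNRF3* (ENSG00000183579, chromosome 22 from 28883572 to 29057488, plus strand), which encodes the related ligase with the same task, had the smallest fold change of the 7 genes in the *AGO1/2/3* line. The samples were at 24.2, 16.5 and 21.9 CPM for wild type, 17.1, 18.1 and 18.3 for *AGO1* knockout, 22.6, 21.8 and 21.4 for *AGO2* knockout, 25.9, 28.8 and 24.3 for *AGO1/2* knockout and 37.1, 35.0 and 30.9 for *AGO1/2/3* knockout. Ordered by mean, *AGO1* knockout, wild type and *AGO2* knockout each overlapped the next, and *AGO1/2* and then *AGO1/2/3* knockout samples lay above them without overlap. Its log2 fold change in *AGO1/2/3* knockout cells was 0.72 (SE 0.13, adjusted p = 0.0003, edgeR's quasi-likelihood test), and 0.55 without wild-type replicate 2. In *AGO1/2* knockout cells it was 0.34 and not called (adjusted p = 0.0835, same test). The 3 samples lay above the wild-type samples, as for 15.5% of all genes, but the closest 2 were at 24.3 and 24.2 CPM. Without wild-type replicate 2 the value was 0.18 (adjusted p = 0.306, same test). In *AGO1* knockout cells *ZNRF3* was at -0.23 and not called, and it was called lower once wild-type replicate 2 was left out (-0.37, adjusted p = 0.0416, same test).

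*LGR5* (ENSG00000139292, chromosome 12 from 71439798 to 71586310, plus strand), the R-spondin receptor that marks intestinal stem cells, was at the lower limit of the assay. It had 1, 0 and 0 counts in wild-type samples, 2, 1 and 1 in *AGO1* knockout samples, 0, 1 and 0 in *AGO2* knockout samples, 0 in each *AGO1/2* knockout sample and 4, 2 and 3 in *AGO1/2/3* knockout samples. All but 1 of the 15 samples were at or below 3 counts, taken as the floor per sample. Scaled for depth, the *AGO1/2/3* knockout samples (0.0701 to 0.102 CPM) lay above all others (at most 0.0622 CPM, in *AGO1* knockout cells). These levels rest on a few counts per sample, and a difference between lines was not tested.

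*AXIN2* (ENSG00000168646, chromosome 17 from 65528563 to 65561648, minus strand) encodes a scaffold of the beta-catenin destruction complex and is the feedback gene most often read as a reporter of the pathway. Its level was 12.1, 3.79 and 18.0 CPM in wild-type samples and 15.2, 11 and 7.57 in *AGO1* knockout samples. It was 26.1, 20.4 and 23.9 CPM in *AGO2* knockout samples, 37.2, 30.1 and 28.7 in *AGO1/2* knockout samples and 99.5, 80.0 and 72.5 in *AGO1/2/3* knockout samples. The wild-type and *AGO1* knockout samples overlapped, and from there each line in this order lay wholly above the one before. In *AGO1/2/3* knockout cells *AXIN2* was 7.43-fold higher than in wild-type cells, or 2.89 on the log2 scale (SE 0.38, adjusted p = 2.37e-05, edgeR's quasi-likelihood test), and in the *AGO1/2* line 2.83-fold higher (1.5 on the log2 scale, SE 0.37, adjusted p = 0.0109, same test). In *AGO2* knockout cells the log2 fold change was 1.05 with a 95% interval of 0.27 to 1.83, and it was not called (adjusted p = 0.0555, same test).

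The size of the *AXIN2* change depended in part on 1 sample. The wild-type level ranged 4.75-fold between replicates, and without replicate 2 the fold changes became 5.48 in the *AGO1/2/3* line and 2.11 in the *AGO1/2* line, both still called. In *AGO2* knockout cells the log2 fold change became 0.62 (adjusted p = 0.127, same test). A protein-coding annotation on the same strand, ENSG00000266076, shares 23547 bases with *AXIN2*, and its mean went from 0.223 to 1.32 CPM between wild-type and *AGO1/2/3* knockout cells, which was not called (adjusted p = 0.0524, same test). Reads from this stretch could be assigned to either annotation.

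*NKD1* (ENSG00000140807, chromosome 16 from 50548396 to 50649249, plus strand) encodes naked cuticle, an inhibitor that binds dishevelled. Its level was 23.9, 21.1 and 29.3 CPM in wild-type samples, 27.7, 30.5 and 40.6 in *AGO1* knockout samples and 25.4, 22.4 and 24.0 in *AGO2* knockout samples. It was 25, 42.8 and 35.9 CPM in *AGO1/2* knockout samples and 148, 107 and 79.1 in *AGO1/2/3* knockout samples. Ordered by mean, *AGO2* knockout, wild type, *AGO1* knockout and *AGO1/2* knockout each overlapped the next, although the *AGO1* knockout samples lay above the *AGO2* knockout samples. The *AGO1/2/3* knockout samples lay above all others, with the widest spread between replicates (mean 111 ± 34.5 CPM, SD, n = 3). Relative to wild type its log2 fold change was 2.17 (SE 0.23, adjusted p = 2.85e-06, edgeR's quasi-likelihood test), and 2.03 without wild-type replicate 2. In *AGO1/2* knockout cells it was 0.48 and not called (adjusted p = 0.171, same test). An annotation of type TEC inside *NKD1* on the same strand, ENSG00000278909, of 3365 bases, went from 1.52 to 5.16 CPM and was called higher as well.

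*NOTUM* (ENSG00000185269, chromosome 17 from 81952507 to 81961840, minus strand) encodes a secreted enzyme that removes the lipid from WNT ligands and so inactivates them. Its level was 5.08, 3.73 and 7.30 CPM in wild-type samples, 2.43, 2.08 and 3.0 in *AGO1* knockout samples and 4.12, 3.61 and 3.70 in *AGO2* knockout samples. It was 8.01, 8.21 and 6.41 CPM in *AGO1/2* knockout samples and 18.0, 14 and 14.6 in *AGO1/2/3* knockout samples. The *AGO1* knockout samples lay below all others, wild-type samples overlapped both the *AGO2* and the *AGO1/2* knockout samples, and the *AGO1/2/3* knockout samples lay above all others. *NOTUM* was thus called in both directions. It changed by 1.53 on the log2 scale in the *AGO1/2/3* line (SE 0.20, adjusted p = 2.25e-05, edgeR's quasi-likelihood test) and by -1.10 in the *AGO1* line (SE 0.22, adjusted p = 0.00557, same test). Without wild-type replicate 2 the values were 1.30 and -1.30. In that fit *NOTUM* was also called lower in *AGO2* knockout cells, at -0.72, while with all samples it was at -0.50 and not called (adjusted p = 0.101, same test).

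*TCF7* (ENSG00000081059, chromosome 5 from 134114681 to 134151865, plus strand) encodes TCF1, one of the DNA-binding partners of beta-catenin. Its level was 19.1, 10.3 and 21.9 CPM in wild-type samples, 23.7, 19.3 and 20.3 in *AGO1* knockout samples and 21.5, 22.3 and 21.6 in *AGO2* knockout samples. It was 30.9, 31.1 and 30.6 CPM in *AGO1/2* knockout samples and 43.3, 43.7 and 37.0 in *AGO1/2/3* knockout samples. The first 3 lines overlapped, and the last 2 stood above them and apart from each other. Against wild type, *TCF7* was at 1.27 (log2) in the *AGO1/2/3* line (SE 0.19, adjusted p = 7.46e-05, edgeR's quasi-likelihood test) and at 0.85 in the *AGO1/2* line (SE 0.19, adjusted p = 0.00587, same test). Without wild-type replicate 2 it was 0.98 and 0.58, called in both.

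*SP5* (ENSG00000204335, chromosome 2 from 170715337 to 170718078, plus strand), a zinc finger repressor and direct beta-catenin target, had the fewest counts of the 7 genes. Against wild type it had the largest fold changes of the 7 in the *AGO1/2* and *AGO1/2/3* lines, though not in the other comparisons. It had 10, 1 and 13 counts in wild-type samples, 14, 12 and 14 in *AGO1* knockout samples and 18, 15 and 14 in *AGO2* knockout samples, but 48, 31 and 28 in *AGO1/2* knockout samples and 131, 93 and 78 in *AGO1/2/3* knockout samples. Scaled for depth, the means were 0.246 ± 0.189, 0.447 ± 0.0173, 0.368 ± 0.0303, 1.21 ± 0.282 and 3.08 ± 0.382 CPM (SD, n = 3 each). The *AGO1/2* knockout samples lay above the first 3 lines, and the *AGO1/2/3* knockout samples above all. Against wild type, *SP5* was at 3.62 (log2) in the *AGO1/2/3* line (SE 0.35, adjusted p = 1.25e-06, edgeR's quasi-likelihood test) and at 2.28 in the *AGO1/2* line (SE 0.38, adjusted p = 0.0008, same test). Without wild-type replicate 2, where 1 count was found, the values were 3.09 and 1.76. In *AGO1* knockout cells the log2 fold change was 0.84 with a 95% interval of -0.10 to 1.78 and was not called, although the 3 samples lay above the wild-type samples, as for 10.2% of all genes. It was 0.34 without wild-type replicate 2. *ERICH2-DT* lies on the opposite strand across the whole of *SP5*, and its mean was 0.852 CPM in wild-type and 0.789 CPM in *AGO1/2/3* knockout cells.

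The other 2 transcription factors were all but absent. *ASCL2* (ENSG00000183734, chromosome 11 from 2268498 to 2270588, minus strand), a regulator of intestinal stem cells, had 1 count in a single *AGO1/2/3* knockout sample and 0 in the other 14. *LEF1* (ENSG00000138795, chromosome 4 from 108047545 to 108168956, minus strand), the TCF family member often induced in colorectal cancers, had 1 count in wild-type replicate 3 and 1 in *AGO1/2/3* knockout replicate 3. A change in either was not detectable at this depth.

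**Figure D2:**
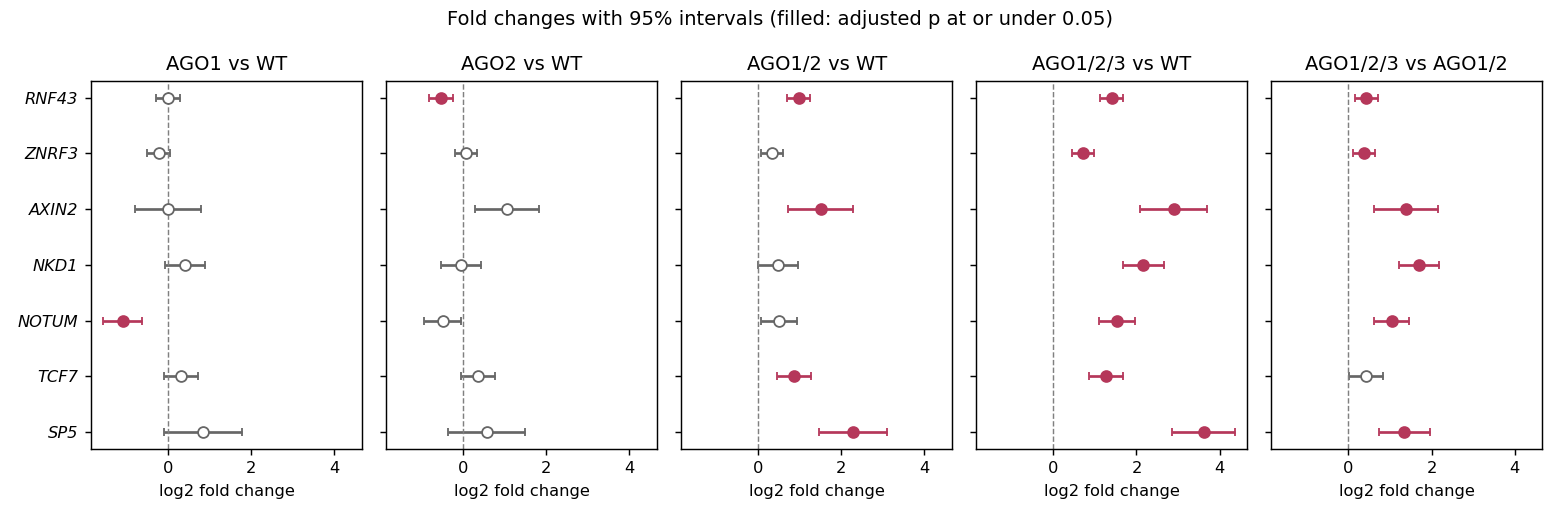
Log2 fold changes of the 7 genes in 5 comparisons, with 95% intervals from the edgeR fit. Filled points were called, open points were not. All 7 intervals lie above 0 in *AGO1/2/3* against wild-type cells, and in *AGO1/2/3* against *AGO1/2* knockout cells 6 of the 7 points are filled.

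The *AGO1/2/3* and *AGO1/2* knockout lines differ by label in *AGO3*, and their comparison sets no level against wild type, although the wild-type samples enter the scaling, the filter and the spread of the single fit. Against *AGO1/2* knockout cells, 6 of the 7 genes were higher in *AGO1/2/3* knockout cells and 0 lower, where 11.9% of all genes were called higher and 10.0% lower. The sample ranges did not overlap for 7 of 7 genes, as for 22.0% of all genes in this direction and 19.6% in the other. The log2 fold change was 1.69 for *NKD1* (SE 0.23, adjusted p = 7.82e-05, edgeR's quasi-likelihood test), 1.39 for *AXIN2* and 1.04 for *NOTUM*, and 1.34 for *SP5*. For the receptor ligases it was 0.43 (*RNF43*, adjusted p = 0.0302, same test) and 0.38 (*ZNRF3*, adjusted p = 0.0395, same test). *TCF7* was at 0.42 with a 95% interval of 0.02 to 0.82 and was not called (adjusted p = 0.126, same test), but without wild-type replicate 2 it was called higher at 0.41 (adjusted p = 0.00501, same test). The *ZNRF3* call was lost under 16 of 22 alternative settings and the *RNF43* call under 6, and that of *AXIN2* was lost without *AGO1/2* knockout replicate 3, where the adjusted p was 0.0545. The calls of *NKD1* and *NOTUM* held under all 22, and that of *SP5* under the 21 that could be fitted.

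**Figure D3:**
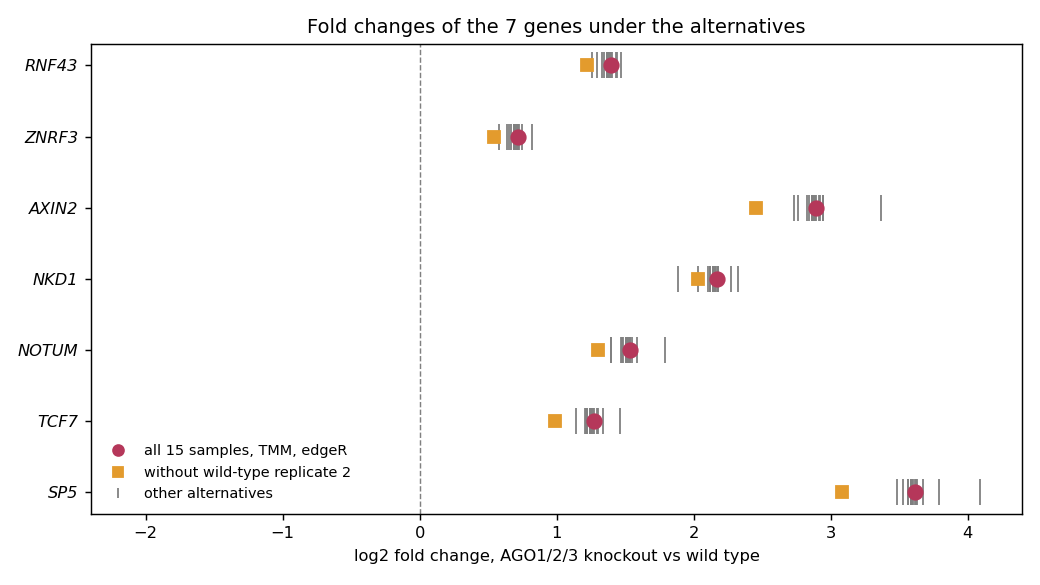
Log2 fold changes of the 7 genes in *AGO1/2/3* against wild-type cells. Red circles use all 15 samples, orange squares leave out wild-type replicate 2, and grey ticks are the other alternatives. Values stay between 2.45 and 3.37 for *AXIN2* and between 3.09 and 4.09 for *SP5*, with the squares at the low end for 6 of the genes.

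Per kilobase of annotated exon, the ranking of the genes also differed between the lines. In wild-type cells the level was 17.1 CPM per kilobase for *RNF43*, 2.99 for *ZNRF3*, 2.17 for *AXIN2*, 1.84 for *NOTUM*, 1.69 for *TCF7*, 1.43 for *NKD1* and 0.118 for *SP5*. In *AGO1/2/3* knockout cells it was 45.2 CPM per kilobase for *RNF43*, 16.2 for *AXIN2*, 6.42 for *NKD1*, 5.34 for *NOTUM*, 4.91 for *ZNRF3*, 4.09 for *TCF7* and 1.49 for *SP5*. *RNF43* was the highest of the 7 in both lines, and *ZNRF3* went from the second place to the fifth. These levels rest on the total exon length of each gene, which need not be the length of the transcripts present.

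The genes around them had median changes near 0, though many were called. Among genes at 1 CPM or more on average whose start lay within 5 Mb of that of each gene, the median log2 fold change in *AGO1/2/3* knockout cells ran from -0.14 (111 genes around *NOTUM*) to 0.21 (71 genes around *RNF43*). Between 21.6% (around *NOTUM*) and 35.2% (around *RNF43*) of these genes were called higher, against 20.3% of all genes tested at any level. Between 4.65% (around *NKD1*) and 37.8% (around *SP5*) were called lower, against 19.8%. None of the 75 genes around *AXIN2*, the 43 around *NKD1*, the 65 around *TCF7* or the 45 around *SP5* had a larger log2 fold change than the WNT target itself. Around *RNF43* there was 1 such gene of 71, around *NOTUM* 2 of 111 and around *ZNRF3* 12 of 98. An antisense RNA that overlaps *RNF43*, *TSPOAP1-AS1*, was higher as well, from 0.258 to 1.40 CPM. The kit was strand specific, but whether the counting used strand is not given in the sources used here.

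**Figure D4:**
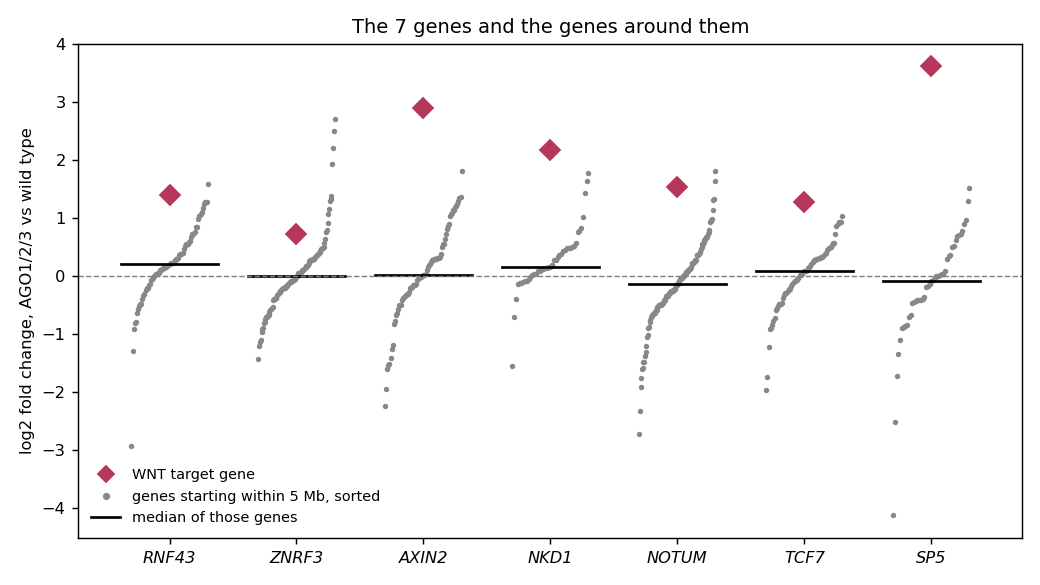
Log2 fold change in *AGO1/2/3* against wild-type cells of each of the 7 genes (red diamond) and of the genes whose start lies within 5 Mb of its start (grey points, sorted), with their median (black line). The diamond lies above every grey point for *AXIN2*, *NKD1*, *TCF7* and *SP5*, and 12 of 98 grey points lie above it for *ZNRF3*.

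The genes with the pattern most like that of *AXIN2* over the 4 knockout lines, by the mean absolute difference of log2 fold change among 16083 genes at 1 CPM or more on average, were *SOCS1* (0.157), *INSIG1* (0.170) and *ADORA1* (0.171). For *SP5* they were *MSX2* (0.147), *SKIDA1* (0.202) and *LHX4* (0.379). The other WNT targets stood further down these rankings. *SP5* was 215th and *NKD1* 384th by likeness to *AXIN2*, and *NOTUM*, with its lower level in *AGO1* knockout cells, was 4620th. By likeness to *SP5*, *AXIN2* was 47th. This measure is a description, since all 4 lines are set against the same wild-type samples. Without wild-type replicate 2 the log2 fold change in the *AGO1/2/3* line went from 2.89 to 2.45 for *AXIN2* and from 3.62 to 3.09 for *SP5*. The rankings were not repeated without that sample.

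Genes in the rest of the pathway were called in both directions in *AGO1/2/3* knockout cells, as were genes over all those tested. Of 119 other genes of the pathway in 6 lists, 95 were tested, and 41 of these were higher and 17 lower, to be read beside the 20.3% and 19.8% of all genes. The lower calls were thus near the share over all genes, and the higher calls were above it. The lists were chosen with earlier results of these data known, so that these shares do not test them as a set. Without wild-type replicate 2 the calls in each list were between 3 and 7 higher and between 0 and 5 lower. *CTNNB1* RNA, which encodes beta-catenin itself, was at 274 ± 61.1 CPM in wild-type cells and 327 ± 15.0 CPM in *AGO1/2/3* knockout cells (SD, n = 3 each), a log2 fold change of 0.26 that was not called (adjusted p = 0.142, edgeR's quasi-likelihood test) and became 0.06 without wild-type replicate 2.

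Of 25 further genes described as WNT targets, 19 were tested, with 7 higher, 4 lower and a median log2 fold change of 0.00. Of all genes, 20.3% were called higher and 19.8% lower. The 2 best-known members of this list went opposite ways. *CCND1*, which encodes cyclin D1, was at 549.8, 486 and 532 CPM in wild-type samples and 2287, 2650.1 and 2713 CPM in *AGO1/2/3* knockout samples, or 2.29 on the log2 scale (SE 0.15, adjusted p = 2.18e-08, edgeR's quasi-likelihood test). *MYC*, the growth-promoting transcription factor, was at 299.6, 226 and 314 CPM in wild-type samples and 50.9, 58.8 and 65.9 CPM in *AGO1/2/3* knockout samples, or -2.26 on the log2 scale (SE 0.14, adjusted p = 1.64e-08, same test). *BMP4* was higher (2.06), as were *TRIB2* (1.67), *FGF9* (1.56), *SOX9* (1.03), *SOX4* (0.82) and *EPHB2* (0.68). *PROX1* (-1.10), *CD44* (-0.78) and *MET* (-0.76) were lower. *BMP4* was at 1.68 and still called without wild-type replicate 2. In *AGO1/2* knockout cells *CCND1* was called higher (1.13) and *MYC* lower (-0.85) as well.

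**Figure D5:**
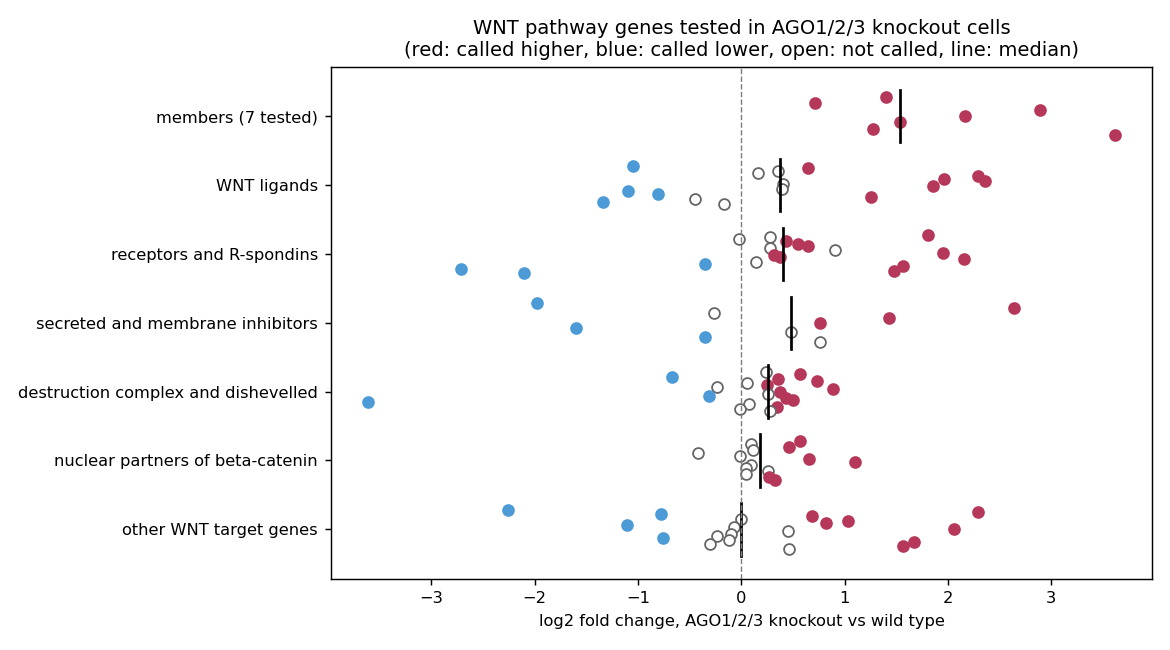
Log2 fold changes in *AGO1/2/3* against wild-type cells of the 7 genes (top row) and of 95 other WNT pathway genes in 6 lists. Red points were called higher, blue points lower, open points were not called, and the black line is the median. Every list except the nuclear partners of beta-catenin holds genes on both sides of 0 that were called. Of all genes tested, 20.3% were called higher and 19.8% lower in this comparison.

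At the cell surface, 10 of 18 receptor and R-spondin genes tested (21 listed) were higher and 3 lower, with a median log2 fold change of 0.41. These counts, and those of the ligands below, stand beside 20.3% of all genes called higher and 19.8% lower. Without wild-type replicate 2 the numbers called were 7 higher and 2 lower. *ROR1*, a receptor for non-canonical WNT ligands, was at 2.16, the Frizzled receptor gene *FZD1* at 1.81 and *LGR4*, the R-spondin receptor related to *LGR5*, at 1.56, from 9.03 ± 3.19 CPM in wild-type to 26.7 ± 1.53 CPM in *AGO1/2/3* knockout cells (SD, n = 3 each). Leaving out wild-type replicate 2, *FZD1* was at 1.55 and *LGR4* at 1.31, both called. *FZD1* was called lower in *AGO1* and *AGO1/2* knockout cells (-0.78 and -0.71) and higher in *AGO2* knockout cells (0.95). The call in the *AGO1* line was lost under 4 of 22 alternatives, among them leaving out wild-type replicate 1 or 3 or *AGO1* knockout replicate 2 (highest adjusted p = 0.137, edgeR's quasi-likelihood test). The call in the *AGO1/2* line was lost under 3, among them leaving out wild-type replicate 3 or *AGO1/2* knockout replicate 3 (highest adjusted p = 0.0988, same test). Of 16 ligand and ligand-processing genes tested (21 listed), 6 were higher and 4 lower (median 0.38), among them *WNT9A* (1.85), *PORCN*, which encodes the enzyme that adds the lipid to WNT ligands (-1.34), and *WNT2B* (-1.05).

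Inhibitors outside the 10 genes were called in both directions. Of 9 secreted and membrane inhibitors tested (18 listed), 3 were higher and 3 lower (median 0.48). Over all genes tested, 20.3% were called higher and 19.8% lower. With 9 genes, these counts are not read as a result about inhibitors as a group. *DKK1*, a secreted blocker of LRP receptors and itself described as a WNT target, was at -1.97 (SE 0.42, adjusted p = 0.00158, edgeR's quasi-likelihood test), although its wild-type level had a wide spread of 94.5 ± 52.6 CPM (SD, n = 3). It was at -2.39 without wild-type replicate 2, and was then called lower in *AGO1/2* knockout cells too (-1.16, adjusted p = 0.0251, same test). *KREMEN2*, a receptor for DKK proteins, was at -1.60 and *KREMEN1* at 0.76, or -1.86 and 0.52 without that sample. *NKD2*, the paralog of *NKD1*, went the other way from it, from 5.45, 6.15 and 7.36 CPM in wild-type samples to 0.510, 0.385 and 0.644 CPM in *AGO1/2/3* knockout samples, or -3.61 on the log2 scale (SE 0.23, adjusted p = 1.29e-08, same test). It was also lower in *AGO1/2* (-1.26) and in *AGO2* knockout cells (-0.68), a call that was lost without *AGO2* knockout replicate 2 (adjusted p = 0.0727, same test).

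Among 19 genes of the destruction complex and dishevelled, all tested, 9 were higher and 3 lower (median 0.26), including *BTRC* (0.89), the ubiquitin ligase subunit that recognizes phosphorylated beta-catenin, and *GSK3B* (0.74), which phosphorylates it. Over the alternative settings the number called higher ran from 3 to 9. The counts of this list and of the nuclear partners stand beside 20.3% of all genes called higher and 19.8% lower. *AXIN1*, the constitutive counterpart of *AXIN2*, was lower (-0.67). Of 14 nuclear partners of beta-catenin tested (15 listed), 6 were higher and 0 lower (median 0.18). These included the corepressor gene *TLE1* (1.10), *CTNNBIP1* (0.65), which encodes an inhibitor of the binding of beta-catenin to TCF proteins, and *TCF7L1* (0.57). *TCF7L2*, which encodes a further TCF partner of beta-catenin, was at 0.10 and not called.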

How the data were processed

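RNAseq of 15 HCT116 samples was analysed. The authors depleted ribosomal RNA, sequenced strand-specific libraries, used STAR for alignment to hg38 and Salmon for quantification, and deposited the expected counts of each gene, 1 table per sample, not scaled for depth. The tool versions in the submitters' notes and in the methods differ and are not repeated here. The headers of the *AGO2* knockout data name a quasi quantification mode, which cannot be told apart from that genotype. eCLIP samples were not analysed here.

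Estimated counts were rounded, filtered with filterByExpr, scaled by TMM and fitted in a single model of 15 samples with a mean per line, with edgeR 4.0.16 in R 4.3.3. The study's methods name DESeq2, and DESeq2 1.42.0 was an alternative, beside other scalings and filters, only the 6 samples compared, a replicate block, a 2-fold threshold and each sample left out in turn. The code was tested on simulated data. Tables and plots used Python 3.11.15, numpy 2.4.6, pandas 2.3.3 and matplotlib 3.10.9. Symbols and positions are those of GENCODE v44, which matched 57167 of 57875 genes. Promoter windows are from RefSeq.

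The members and lists were chosen with earlier results of these data known. Of each pathway list the 3 called genes with the largest absolute fold change in *AGO1/2/3* knockout cells and a mean of at least 1 CPM were named by rule, as were the 3 genes most like *AXIN2* and *SP5*. *AXIN1*, *TCF7L2* and the further WNT targets were named after their values were seen.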

Additional observations from a re-analysis of the deposited data

How the results depend on the processing

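Of 765 fold changes of single genes under 22 alternatives, 725 stayed on the same side of the threshold, 28 lost and 12 gained a call and 0 calls changed sign. Among uncalled values 28 took the other sign. In *AGO1/2/3* against wild-type cells all 7 genes kept their calls under these alternatives, and 6 of them (not *ZNRF3*) passed a 2-fold threshold as well. *SP5* was not testable with at least 10 counts in every sample. With total counts in place of TMM the median over all genes tested moved to between -0.15 and -0.06 (log2). Of the genes called lower in *AGO1* knockout cells (1), 0 remained with only the 6 samples compared, and the leave-one-out range was 1 to 2 (2 without wild-type replicate 2, which added *ZNRF3*). In *AGO2* knockout cells the number called higher (0) was 1, *AXIN2*, with no filter on low counts and with the replicate block, and 0 to 1 when samples were left out in turn (1 without *AGO1* knockout replicate 1, *AGO1* knockout replicate 3 or wild-type replicate 3). The number called lower there (1) was 2 with total counts only, 0 with only the 6 samples compared, 0 at a 2-fold threshold and 0 to 2 when samples were left out (0 without *AGO2* knockout replicate 2, 2 without wild-type replicate 2). In *AGO1/2* knockout cells the number called higher (4) was 2 with only the 6 samples compared and 2 at a 2-fold threshold. In *AGO1/2/3* against *AGO1/2* knockout cells the number called higher (6) ran from 3 (without *AGO1/2* knockout replicate 3) to 7 when samples were left out, and was 4 at a 2-fold threshold. The cause of these differences was not tested. Samples of different lines with the same replicate number were on average no more alike than those with different numbers. Over 30 pairs with the same number the correlation of deviations averaged -0.01 (range -0.35 to 0.45, 8 pairs over 0.1). Over 60 pairs with different numbers it averaged 0.006 (range -0.50 to 0.46, 15 pairs over 0.1). A pairing of single samples was not tested. With the number as a replicate block 7 genes were called higher in *AGO1/2/3*, 4 in *AGO1/2* and 5 in *AGO1/2/3* against *AGO1/2* knockout cells. The pathway lists' counts in the *AGO1/2/3* line ranged over the alternatives from 2 to 7 higher for ligands, 6 to 10 for receptors, 1 to 3 for inhibitors, 3 to 9 for the destruction complex, 4 to 6 for nuclear partners and 5 to 7 for other targets. The depth limits *LGR5*, *ASCL2* and *LEF1*, which did not pass the filter on low counts and for which no fold change is given.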
